A study of Mus musculus with 6 samples.

Results

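Aminoacyl tRNA synthetases are the enzymes that join each amino acid to its tRNA, and they were followed here in 3T3-L1 cells, a line of mouse preadipocytes that fills with lipid when given adipogenic hormones. The members are the genes whose symbol in the deposited table has the form of a synthetase symbol, namely a letter followed by ars or ars2, or Eprs, Farsa or Farsb, on a transcript cluster (the gene-level probe set of the array) with a single symbol. The rule found 36 genes on 36 of the 22206 clusters tested: 19 cytosolic enzymes and 17 mitochondrial ones, whose symbols end in 2. Aars, the cytosolic alanyl enzyme, shares its cluster with Exosc6 and is not reported.

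RNA was hybridised to 6 Clariom S mouse arrays. The Tsuru group, of 3 arrays, is 3T3-L1 cells given an extract of Tsuruazuki, and the control group, of 3 arrays, is 3T3-L1 cells without it, both collected at day 9. The protocol describes an induction with IBMX, insulin and dexamethasone followed by insulin medium from day 3 for cells with and without the extract, while the control titles mention only medium. The labels name a 1000-fold and a 100-fold dilution of the 100 mg/ml extract, and which of them the arrayed cells received is not stated. 3T3-L1 is a clonal line. Separate cultures are not stated for the 3 replicates, so the p-values cover the spread among these arrays alone, part or all of which may be technical.

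Cytosolic synthetases charge the tRNAs that feed the ribosomes of the cytosol, and several of them sit together in a multisynthetase complex held by scaffold proteins. Mitochondrial synthetases are encoded in the nucleus and imported to charge the tRNAs of the organelle's own genome, which encodes subunits of the respiratory chain. Gars and Kars each encode both the cytosolic and the mitochondrial form of their enzyme. Many cytosolic synthetase genes are known targets of ATF4, the transcription factor of the amino acid and integrated stress responses, which binds elements with the core TGATGNAA. Mitochondrial content increases as preadipocytes become fat cells.

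That core was searched on both strands of the RefSeq promoter windows (250 bases before to 50 after the gene start, build GRCm38.p6). Windows were on hand for 27 of the 36 members, 12 cytosolic and 15 mitochondrial. It was present in 4 of the 27 (14.8%), all 4 cytosolic, and in 3.97% of the 32851 windows of all genes. The sites are shown because they mark the members with a candidate ATF4 element close to their start; the core is in capitals, each site is read 5′ to 3′ on the strand that carries the core, and a match of letters is not evidence of binding.
Yars, chr4:129189895-129189924, plus strand: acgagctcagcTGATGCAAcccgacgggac
Iars, chr13:49682126-49682155, minus strand: gcgtctggaggTGATGCAAtactgacagtg
Gars, chr6:55037960-55037989, minus strand: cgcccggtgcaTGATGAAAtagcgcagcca
Tars, chr15:11399655-11399684, plus strand: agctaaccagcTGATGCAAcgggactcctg
The core of Gars differs from the other 3 in its single free base. Mean signals with Tsuru were higher for Yars and Iars and lower for Gars and Tars, as given below. For Iars, Gars and Tars the confidence interval of the difference covered both signs, at -0.20 to 0.57, -0.55 to 0.16 and -0.77 to 0.14. Their direction is thus not settled, and whether the 4 genes moved together was not tested.

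With 3 arrays per group, synthetase genes showed no difference between the groups that held after adjustment for the number of clusters tested. Signals are the authors' log2 values, and each cluster was fitted with limma, Tsuru minus control. No member reached an adjusted p under 0.05 (limma, Benjamini-Hochberg over 22206 clusters), and none of all the clusters did (0%), although 25 clusters, none of them a member, did so without control replicate 3; the lowest adjusted p of a member was 0.379. At the threshold named in the series' methods, an unadjusted p under 0.05 with a fold above 1.1, 2 members were higher with Tsuru and 0 were lower. Over all clusters 5.75% (1277) were higher and 5.38% (1195) lower at that threshold, or 2026 and 766 after subtraction of array medians. The members' 2 of 36 (5.56%), both higher, is near the 5.75% higher and under the 11.1% of both directions. Among clusters with a mean log2 signal of at least 6, 10% were higher and 3.2% lower. Fold changes, Tsuru over control, ran from 0.80 to 1.31 for cytosolic genes and from 0.73 to 1.51 for mitochondrial ones. The 95% intervals of the difference lay within a 2-fold change either way for all 19 cytosolic genes and for 14 of the 17 mitochondrial ones, and had a median half-width of 0.43 on the log2 scale.

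The 3 Tsuru arrays lay wholly above the 3 control arrays for 4 members and wholly below for 3, against 9.06% and 7.75% of all clusters. The members that lay above were Wars2, Yars, Tars2 and Rars2, and those below were Pars2, Gars and Hars. An exact permutation test over the 20 splits of the 6 arrays cannot go below p = 0.10 (two-sided), and these 7 members were at that limit.

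**Figure D1:**
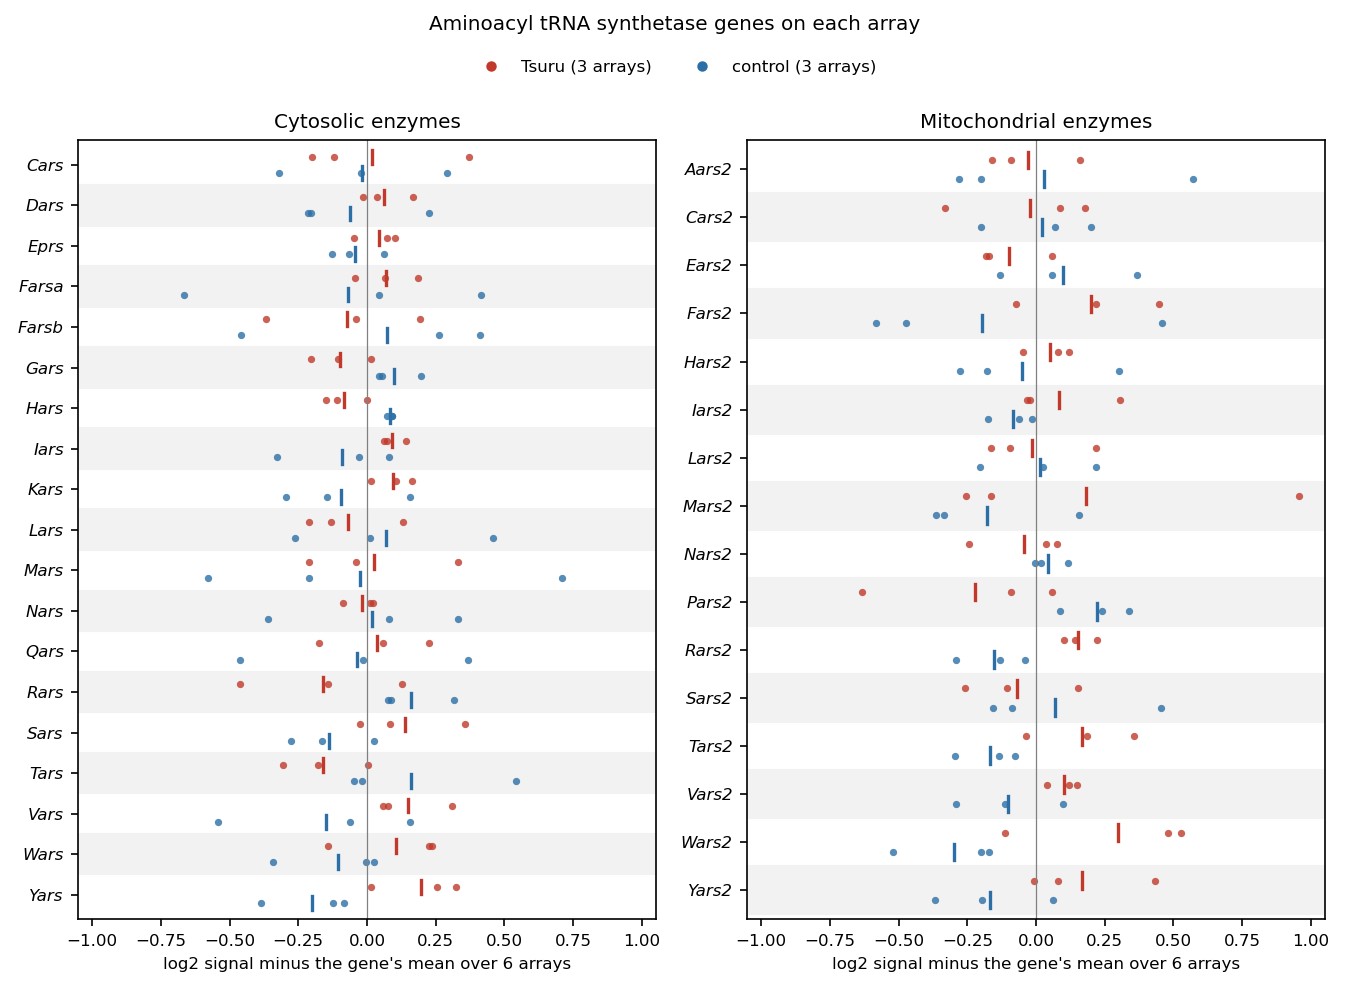
Each point is the log2 signal of a gene on 1 array minus that gene's mean over the 6 arrays, with Tsuru arrays above control arrays in each row and bars at the group means; cytosolic enzymes are on the left and mitochondrial ones on the right. Of the 36 genes 35 are drawn, the groups overlap for 29 of all 36, and control points spread widely for Farsa, Farsb, Mars, Qars and Nars.

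Wars2, the mitochondrial tryptophanyl enzyme, had the smallest p of all members. Its log2 signal was 7.10, 7.05 and 6.46 with Tsuru, against 6.05, 6.40 and 6.37 without. Every Tsuru array was above every control array, but Tsuru replicate 3 exceeded the highest control by little. The difference was 0.60 ± 0.21 (SE) on the log2 scale, or 1.51-fold, with an adjusted p of 0.379 in limma. It was not past the methods' threshold when Tsuru replicate 1 (0.48), Tsuru replicate 2 (0.51) or control replicate 1 (0.48) was left out, nor without the empirical Bayes step. In the authors' deposited table Wars2 was likewise past that threshold, at a fold of 1.64.

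Yars, the cytosolic tyrosyl enzyme, was the other member past the threshold. It read 12.86, 12.93 and 12.62 with Tsuru, against 12.22, 12.48 and 12.52 without. The groups did not overlap, and control replicate 1 was the lowest array. The difference was 0.39 ± 0.17 (SE), or 1.31-fold, with an adjusted p of 0.443 in limma. The call was lost without either of Tsuru replicates 1 and 2 or control replicates 1 and 2, where the difference lay between 0.30 and 0.43, and after quantile or cyclic loess normalization, at 0.31 and 0.28. In the authors' deposited table Yars had a fold of 1.22 and a p-value of 0.0811, and so was not past the threshold there.

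Mitochondrial synthetases had a median log2 difference of 0.10 over 17 genes, 9 of them positive, beside 0.004 over all clusters, of which 50.6% were positive. It was -0.01 without control replicate 2, 0.02 without Tsuru replicate 3 and 0.19 without control replicate 3. Subtraction of array medians gave 0.18, beside 0.084 over all clusters, and averages from the authors' deposited table gave 0.22. Over clusters with a mean log2 signal of at least 6 the median was 0.102, and over the 11 mitochondrial members among them 0.17. Tars2, the threonyl enzyme, read 6.35, 6.13 and 6.52 with Tsuru and 6.03, 5.87 and 6.09 without, a difference of 0.34 ± 0.17 (SE). Rars2, the arginyl enzyme, read 7.12, 7.08 and 7.20 with Tsuru and 6.69, 6.94 and 6.85 without, a difference of 0.31 ± 0.16. In both genes the 3 Tsuru arrays were the highest, by a margin no wider than the spread among the controls, and limma's adjusted p was 0.493 for Tars2 and 0.50 for Rars2. After subtraction of array medians both were past the methods' threshold, at 0.42 and 0.39, as was Rars2 without the empirical Bayes step. Rars2 also passed it in the authors' deposited table, at a fold of 1.35.

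Pars2, the prolyl enzyme, was the mitochondrial member with the lowest difference. It read 4.68, 4.53 and 3.99 with Tsuru and 4.86, 4.96 and 4.71 without. The Tsuru arrays were all lower, Tsuru replicate 3 most of all, and the difference of -0.45 ± 0.21 (SE) was -0.24 without that array and, past the methods' threshold, -0.59 without Tsuru replicate 1. The Tsuru mean of 4.4 was below 4.57, the average of the background probe sets, so the size of the difference is not exact. The authors' deposited table had Pars2 past the threshold, with a signed fold of -1.36.

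The differences of Fars2 and Mars2 had wide errors and moved with 1 array, and several smaller differences changed sign when 1 array was left out. Fars2, the phenylalanyl enzyme, read 7.63, 7.11 and 7.40 with Tsuru and 7.64, 6.71 and 6.6 without. Control replicate 1 alone reached the Tsuru level, and the difference of 0.40 ± 0.28 (SE) was 0.73 without it, past the methods' threshold. Mars2, the methionyl enzyme, read 5.35, 5.44 and 6.56 with Tsuru and 5.24, 5.76 and 5.27 without. Here Tsuru replicate 3 stood high, and without it the difference of 0.36 ± 0.31 became -0.03.

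The other mitochondrial members named here lay between -0.20 for Ears2, the glutamyl enzyme, and 0.34 for Yars2, the tyrosyl enzyme, whose groups overlapped. Yars2 passed the methods' threshold without control replicate 1, at 0.45. Iars2 for isoleucine, Hars2 for histidine and Vars2 for valine were at 0.17, 0.10 and 0.20. Lars2 for leucine, Cars2 for cysteine, Aars2 for alanine, Nars2 for asparagine and Sars2 for serine were at -0.03, -0.04, -0.06, -0.09 and -0.14. Over the mitochondrial list, 8 of the 17 genes had at least 1 group mean under 6.01, the highest mean of the negative control sets on any array, while none of the 19 cytosolic genes did. The 8 mitochondrial genes were Aars2, Ears2, Mars2, Nars2, Pars2, Tars2, Vars2 and Yars2. The mitochondrial differences are thus closer to the floor of the assay.

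Cytosolic synthetases had a median log2 difference of 0.07 over 19 genes, 12 of them positive. Clusters with a mean log2 signal of at least 10, a level that 14 of the 19 reached, had a median of 0.10, and 65.8% of them were positive. The cytosolic median therefore lay no higher than that of similarly bright clusters. It was -0.05 without control replicate 1, -0.01 after cyclic loess normalization and 0.19 without control replicate 3.

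**Figure D2:**
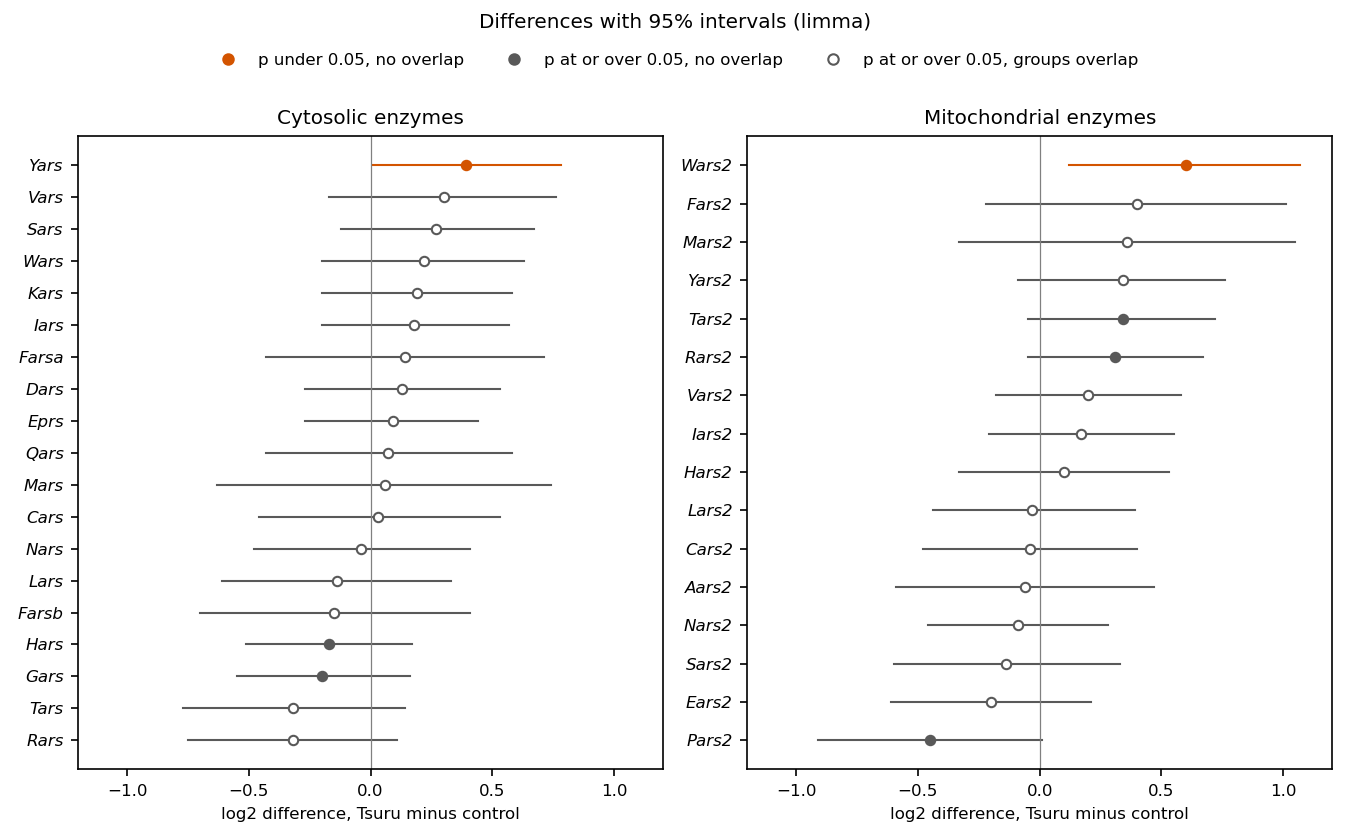
Points are log2 differences, Tsuru minus control, and lines are 95% intervals from limma; filled points mark genes whose groups do not overlap and orange points those past the methods' threshold. Yars at 0.39 and Wars2 at 0.60 are the members whose intervals leave 0 out.

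Gars, which charges glycine tRNA in both compartments, read 14.11, 14.23 and 14.01 with Tsuru and 14.27, 14.41 and 14.26 without. Hars, the histidyl enzyme, read 10.81, 10.70 and 10.66 with Tsuru and 10.88, 10.90 and 10.90 without. In both genes every Tsuru array was below every control array, by small amounts. The differences were -0.20 ± 0.16 (SE) for Gars and -0.17 ± 0.15 for Hars, with adjusted p of 0.671 and 0.701 in limma. When the empirical Bayes step was left out, so that each gene kept its own spread, Hars was past the methods' threshold.

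The cytosolic genes with the lowest differences were Rars and Tars, both at -0.32. Rars, the arginyl enzyme of the multisynthetase complex, read 11.30, 11.62 and 11.89 with Tsuru and 11.84, 11.85 and 12.08 without. Tars, the threonyl enzyme, read 12.49, 12.67 and 12.36 with Tsuru and 12.62, 13.21 and 12.65 without. The groups overlapped in both, and control replicate 2 stood high for Tars. Rars, with an SE of 0.19, was past the methods' threshold after cyclic loess normalization, at -0.44, and without Tsuru replicate 3, at -0.46.

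Iars, the isoleucyl enzyme and the remaining gene with the ATF4-type core, read 12.93, 12.86 and 12.85 with Tsuru and 12.46, 12.87 and 12.76 without. Control replicate 1 was low and control replicate 2 lay among the Tsuru values, and the difference was 0.18 ± 0.17 (SE). Eprs, the fused glutamyl and prolyl enzyme, differed by 0.09 ± 0.16. Sars for serine, Vars for valine and Kars for lysine had differences of 0.27 ± 0.18, 0.30 ± 0.21 and 0.19 ± 0.18, and their groups overlapped. Cars for cysteine was at 0.03 ± 0.22, and Farsb, the beta chain of the phenylalanyl enzyme, at -0.15 ± 0.25.

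Both compartments' enzymes for the same amino acid could be set side by side, under matching symbols, for 12 named pairs, of which 7 had differences of the same sign and 5 of opposite sign, many of them close to 0. For tyrosine both differences were positive, 0.39 for Yars and 0.34 for Yars2, and for tryptophan they were 0.22 for Wars and 0.60 for Wars2. For arginine and threonine the cytosolic difference was -0.32 in each case and the mitochondrial one was 0.31 for Rars2 and 0.34 for Tars2. For serine they were 0.27 for Sars and -0.14 for Sars2, and for valine 0.30 for Vars and 0.20 for Vars2. These pairs were picked after their values were seen, and no test of the contrasts was made.

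Members were grouped by the fold of the catalytic domain, with the fused enzyme Eprs counted in class I alone. Class I members had a median difference of 0.17 over 19 genes, 14 of them positive. Class II members had a median of -0.06 over 17, 7 of them positive. Of all clusters 50.6% were positive, and of those with a mean log2 signal of at least 10, 65.8%. Cytosolic members had medians of 0.08 in class I and -0.04 in class II, and mitochondrial ones 0.20 and -0.07. With both compartments together the class medians were 0.05 and 0.00 after quantile normalization. After subtraction of array medians they were 0.25 and 0.02. The contrast of the classes was not tested. The 8 enzymes of the multisynthetase complex (Dars, Eprs, Iars, Kars, Lars, Mars, Qars and Rars) had a median of 0.08, and the 11 cytosolic enzymes outside it 0.03; after cyclic loess normalization these were -0.00 and -0.10.

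Spread among the controls was wide for several cytosolic genes. The median SD was 0.16 over the Tsuru arrays and 0.25 over the control arrays for cytosolic genes, and 0.19 and 0.24 over all clusters. Over clusters with a mean log2 signal of at least 10 it was 0.14 and 0.22. The control SD was the larger for 63.2% of cytosolic genes and 70.2% of those bright clusters. Qars, the glutaminyl enzyme, read 11.16, 11.33 and 10.93 with Tsuru and 10.64, 11.09 and 11.47 without. Nars, the asparaginyl enzyme, read 12.79, 12.90 and 12.89 with Tsuru and 12.52, 12.96 and 13.21 without. In both, the controls bracketed the Tsuru arrays, with control replicate 1 the lowest array and control replicate 3 the highest.

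Farsa, the alpha chain of the phenylalanyl enzyme, showed the same order, at 8.83, 8.72 and 8.95 with Tsuru and 8.10, 8.81 and 9.18 without. So did Lars for leucine, at 10.64, 10.90 and 10.56 with Tsuru and 10.51, 10.78 and 11.23 without. Dars for aspartate did too, with controls at 11.42, 11.43 and 11.86 and a control SD of 0.25. Farsb and Vars, with control SDs of 0.46 and 0.36, had other orders. Their controls read 10.08, 10.23 and 9.36 for Farsb, and 7.65, 8.35 and 8.13 for Vars. Mars, the methionyl enzyme, had the widest control spread of the cytosolic genes, reading 7.19, 6.65 and 6.82 with Tsuru and 6.65, 6.28 and 7.57 without. Its difference of 0.06 ± 0.31 (SE) ran from -0.22 without control replicate 2 to 0.42 without control replicate 3.

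Control replicate 1 was the lowest array for 10 of 19 cytosolic genes (52.6%), against 24% of all clusters and 42.4% of those with a mean log2 signal of at least 10. Control replicate 3 was the highest for 7 (36.8%), against 16% of all clusters and 17.8% of bright ones. Both held for 5 of the 19 (26.3%), against 4.83% of all clusters and 9.99% of bright ones. After quantile normalization the counts were 7 lowest, 8 highest and 3 both (15.8%), the last against 7.56% of bright clusters. Over all clusters, control replicate 1 was the least like the rest, with a mean correlation to the other arrays of 0.9868 against 0.9906 to 0.9918. The spike-ins dap, phe and thr read highest on control replicates 1 and 2. The part of these array differences in the results was not tested.

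Wars, the cytosolic tryptophanyl enzyme, is induced by interferon gamma in human cells. It read 10.54, 10.55 and 10.17 with Tsuru and 10.31, 10.34 and 9.97 without, a difference of 0.22 ± 0.19 (SE). In the interferon response list of 20 genes, the median deviation from each gene's mean was -1.0, -0.15 and 0.14 with Tsuru and 1.87, -0.87 and -0.00 without. Within that list Ifi44 and Irf1, both induced by interferons, were highest on control replicate 1, at 12.27 and 11.10. The list's median difference was -0.66, with 19 of 20 negative and 0 past the methods' threshold. That median was 0.09 without control replicate 1 and -1.30, with 9 genes lower, without control replicate 2. A link between Wars and this list was not tested.

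**Figure D3:**
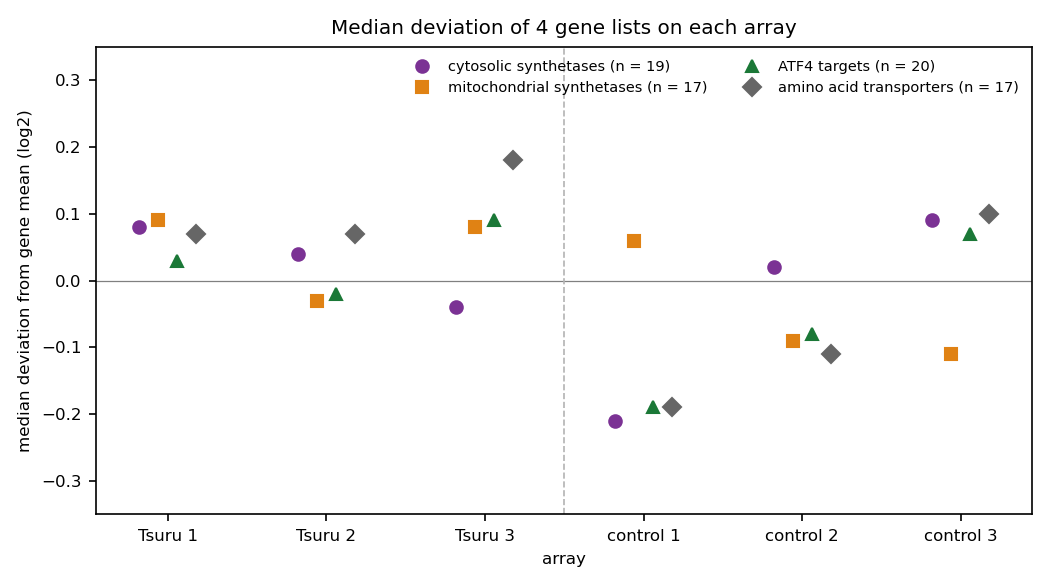
Each point is the median, over the genes of a list, of the log2 signal minus the gene's mean over the 6 arrays, with Tsuru arrays on the left and control arrays on the right. On control replicate 1 the cytosolic synthetases lie at -0.21 and the ATF4 targets and amino acid transporters at -0.19. The mitochondrial synthetases lie at 0.06. All clusters with a mean log2 signal of at least 10, not drawn, have a median of -0.14 on that array. After quantile normalization those clusters are at -0.02 and the cytosolic synthetases at -0.11.

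The ATF4 pathway was read from lists of regulators and targets. Atf4 itself read 13.93, 13.94 and 13.80 with Tsuru and 13.77, 14.07 and 14.00 without, a difference of -0.06 ± 0.16 (SE) with overlapping groups. ATF4 is controlled largely at translation, which arrays do not measure. Ddit3, the stress factor CHOP, read 12.67, 12.77 and 11.90 with Tsuru and 11.99, 12.30 and 11.52 without, a difference of 0.51 ± 0.27. Atf5, another stress transcription factor, and Ppp1r15b, a subunit of an eIF2 alpha phosphatase, were at 0.42 ± 0.22 and 0.44 ± 0.21. None of the 14 regulators was past the methods' threshold, and their median was 0.03. There were 2 higher after subtraction of array medians and without control replicate 2, and 2 higher and 1 lower without control replicate 3.

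Of 20 ATF4 target genes, 3 were past that threshold higher with Tsuru and 1 lower, with a median difference of 0.02, beside 5.75% higher and 5.38% lower over all clusters. Eif4ebp1, an inhibitor of cap-dependent translation, read 11.39, 11.51 and 11.16 with Tsuru and 10.56, 10.27 and 10.64 without, a difference of 0.87 ± 0.18 (SE). Psph, the last enzyme of serine synthesis, went the other way, at 10.20, 10.11 and 9.98 with Tsuru and 11.25, 11.04 and 10.50 without, a difference of -0.83 ± 0.21. The groups were apart in both genes, for Eif4ebp1 by more than the range of either group and for Psph by less than the range of the controls. Trib3, a pseudokinase that restrains Akt and ATF4, and Pycr1, of proline synthesis, differed by 0.50 ± 0.16 and 0.43 ± 0.18. Asns, the asparagine synthetase, read 13.78, 13.75 and 13.92 with Tsuru and 13.67, 13.75 and 14.12 without. After quantile or cyclic loess normalization the list's counts were 2 higher and 3 lower, and without control replicate 3 they were 6 and 1. Like Nars, Asns was lowest on control replicate 1 and highest on control replicate 3.

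Of 17 amino acid transporters, 3 were past the threshold higher and 1 lower, beside the same 5.75% and 5.38% of all clusters. Their median was 0.12, or -0.01 without control replicate 1 and 0.00 after cyclic loess normalization. Slc1a5, a glutamine carrier, read 12.33, 12.32 and 12.33 with Tsuru and 11.78, 12.04 and 11.83 without, a difference of 0.44 ± 0.16 (SE). Slc1a4, a carrier of small neutral amino acids, and Slc36a4, a proline and tryptophan carrier, were at 0.68 ± 0.27 and 0.42 ± 0.18. Slc38a1, another glutamine carrier, was lower by -0.53 ± 0.17 at a signal under that of the negative control sets. Neither cyclic loess normalization nor the fit without Tsuru replicate 1 left any transporter past the threshold on the higher side, and without control replicate 3 there were 5.

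Partners of the synthetases showed 1 gene past the threshold, higher with Tsuru, in each of 3 lists, beside 5.75% higher over all clusters. Among the scaffolds of the multisynthetase complex, Eef1e1 read 9.16, 9.27 and 9.03 with Tsuru and 8.74, 8.79 and 8.82 without, a difference of 0.37 ± 0.16 (SE), while Aimp1 was at 0.11 ± 0.27 and Aimp2 at -0.09 ± 0.23. Among 6 genes that help charge organelle and selenocysteine tRNAs, the median was 0.35, and Gatb, a subunit of the mitochondrial amidotransferase that makes glutaminyl tRNA, differed by 0.52 ± 0.22. Its signal lay under the mean of the negative control sets, and its groups overlapped. Among 13 genes of tRNA maturation and export, Elac2, which trims the 3′ end of tRNA precursors, differed by 0.63 ± 0.27 with overlapping groups, and the list's median was 0.12. None of these 3 calls held in every alternative. The scaffold list had none after quantile or cyclic loess normalization, or on leaving out any array but Tsuru replicate 3. The maturation list had none after either normalization, or on leaving out any array but control replicate 3. The charging partners had none with a variance trend, with array weights, without clusters of a mean log2 under 6, or without control replicate 1 or 3.

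The proofreading and elongation lists had no gene past the threshold. Over 5 measured proofreading genes the median was -0.05, with Dtd1, which removes D-amino acids from tRNA, at -0.26 ± 0.19 (SE) and Yrdc, a tRNA modification enzyme, at -0.07 ± 0.24. Over 9 elongation factors the median was 0.09, with the mitochondrial factors Tufm and Gfm1 at 0.35 ± 0.19 and 0.27 ± 0.17. No gene of any of these lists reached an adjusted p under 0.05 in limma.

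**Figure D4:**
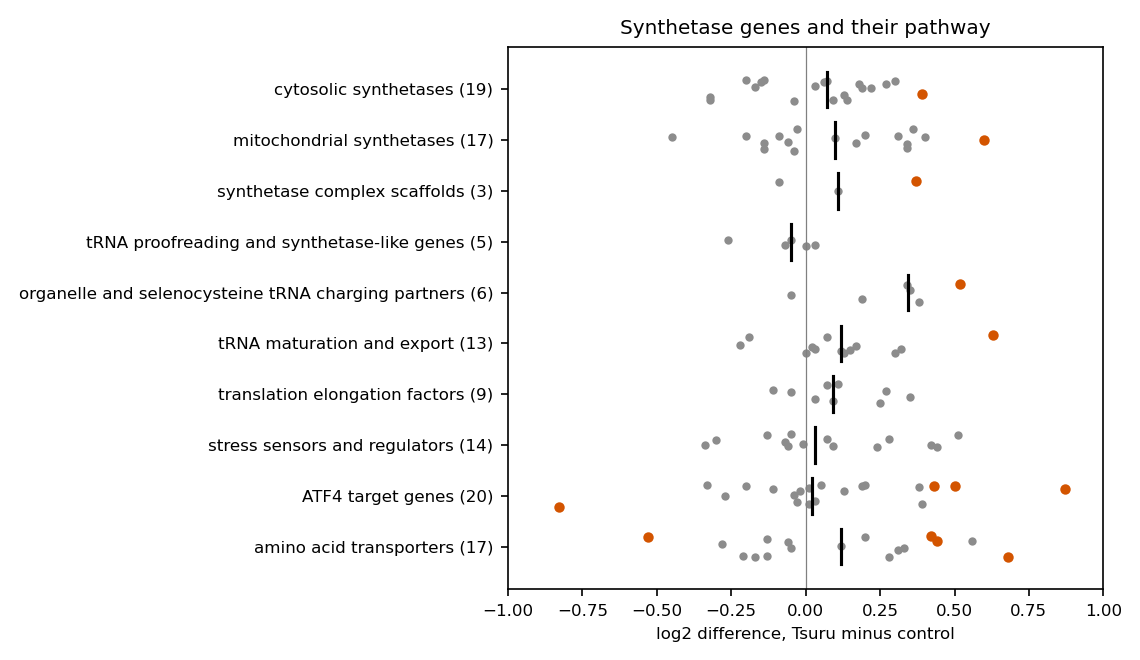
Points are log2 differences, Tsuru minus control, of the genes of each list, with the number measured in brackets; orange points are past the methods' threshold and black bars are medians. List medians run from -0.05 for proofreading genes to 0.35 for the charging partners, and individual genes from -0.83 for Psph to 0.87 for Eif4ebp1.

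The state of the cells was checked with marker genes. The 8 adipocyte markers were bright in both groups, with a mean log2 signal of 14.24 to 14.56 on the Tsuru arrays and 13.75 to 14.17 on the control arrays, and 2 of them, Plin1 and Cfd, were past the methods' threshold higher with Tsuru, beside 5.75% of all clusters. There were 4 without control replicate 1 and with a variance trend in the fit. The 5 measured preadipocyte markers averaged 11.35 to 11.43 with Tsuru and 11.42 to 11.54 without, with 0 past the threshold. Their levels ran from 4.30 with Tsuru and 4.68 without for Cd34 to 17.37 and 17.35 for Dlk1. All 6 macrophage markers had a group mean under 6.01, their mean signal was 4.75 to 5.01 with Tsuru and 4.74 to 5.35 without, and Lyz2 alone was past the threshold, lower with Tsuru, a call absent when Tsuru replicate 2 or 3 or control replicate 1 or 2 was left out, without the empirical Bayes step and with array weights. Without control replicate 3 there were 2 lower. In bulk RNA, fewer cells of a type and less RNA per cell cannot be told apart, and the part of the adipocyte marker difference in the synthetase values was not tested.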

How the data were processed

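The 6 arrays gave log2 signals for 28846 probe sets, normalized by the authors with SST-RMA in Transcriptome Analysis Console 4.0.2, per the series design text. The 6640 control sets were left out of tests. The authors' deposited table names the genes and gives log2 group averages, signed fold changes and p-values, the last by ANOVA with an empirical Bayes step per the series design text; its averages are not the means of the deposited arrays. No build is given in the sources used here for the clusters, so no gene coordinates are stated. Differences, Tsuru minus control, were estimated per cluster by lmFit and eBayes of limma 3.58.1 under R 4.3.3, with Benjamini-Hochberg adjustment over 22206 clusters; errors are moderated standard errors unless given as SD. The fit was tested on simulated data. Each member has 1 cluster; 1 member enters the counts and medians and is not reported here by itself. Of 165 list genes, 162 were matched. The members and lists were chosen with earlier results of these data known. Named list genes are Atf4, Ddit3, Trib3 and Asns, then up to 4 per list past the methods' threshold by smallest p. Where none passed, they are the 2 with the smallest p. Aimp1, Aimp2, Dlk1 and the promoter sites were added after values were seen. No pair of arrays shared over 100 identical values. The number of arrays limits the precision. Alternatives covered normalization, dim clusters, the variance model, array weights, the replicate block and leaving out each array.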

Additional observations from a re-analysis of the deposited data

How the results depend on the processing

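The count of members at an adjusted p under 0.05 was 0 under all 14 alternatives. The 2 higher calls became 1 after quantile normalization (Wars2), 1 after cyclic loess (Wars2), and 4 after subtraction of array medians (Rars2, Tars2, Wars2 and Yars). The 0 lower calls became 1 after cyclic loess (Rars) and 1 without the empirical Bayes step (Hars), where Wars2 was not past the threshold. With the replicate block the counts were 1 higher (Wars2) and 1 lower (Pars2). The shared numbers do not pair the samples: the correlation of deviations was 0.00, 0.01 and 0.19 for replicates 1, 2 and 3. Leaving out 1 array gave 0 to 2 higher and 0 to 1 lower calls, a cytosolic median of -0.05 to 0.19 and a mitochondrial median of -0.01 to 0.19. The variance trend, the fit without empirical Bayes, the replicate block and leaving out dim clusters keep the difference itself, so no sign could turn there. Of 484 results of the 35 named members, 427 kept direction and side of the threshold and 36 turned sign, in 14 members whose main difference was at most 0.36 in size. Their ranges on leaving out 1 array were Aars2 -0.21 to 0.21, Cars -0.14 to 0.19, Cars2 -0.16 to 0.11, Farsa -0.16 to 0.38, Farsb -0.41 to 0.02, Hars2 -0.01 to 0.28, Lars -0.30 to 0.05, Lars2 -0.14 to 0.07, Mars -0.22 to 0.42, Mars2 -0.03 to 0.58, Nars -0.23 to 0.12, Nars2 -0.15 to 0.01, Qars -0.14 to 0.28 and Sars2 -0.25 to 0.05. Sign also turned after quantile normalization for Aars2 (0.04), Cars (-0.10), Nars2 (0.00) and Qars (-0.05). After cyclic loess it turned for Aars2 (0.01), Cars (-0.10), Mars (-0.01) and Qars (-0.05). After subtraction of array medians it turned for Aars2 (0.02), Cars2 (0.04), Lars2 (0.05) and Nars (0.04), and with array weights for Cars2 (0.00). Leaving out clusters with a mean log2 under 6 left 30 members. Averaging a gene's clusters was not run, since each member has 1. The cause of these changes was not tested.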
